A study of Mus musculus with 8 samples.

Results

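A set of 6 transcription factor genes was followed in cultured embryonic mouse liver cells, namely *Hnf4a*, *Onecut1*, *Onecut2*, *Prox1*, *Gata4* and *Gata6*. They were taken by gene symbol, in a choice made with earlier results of these data known, as 6 of 23467 genes with a symbol of their own in the deposited table. The cells were hepatoblasts from E14.5 livers, the progenitors of hepatocytes and of biliary epithelial cells (BECs). RNA was sequenced from the cultured hepatoblasts (iHBs), from cells differentiated to hepatocytes with Oncostatin M at 12.5 ng per ml (iHPs) and from cells differentiated to BECs in Matrigel for 14 days (iBECs). The strain of all 8 samples is given as B6;129 mixed. Control cells are labelled wild type. The other cells, L1L2_Alb, are labelled Lats1-/-;Lats2f/fl;Alb-cre, which lack *Lats1* in every cell and in which Cre under the albumin promoter deletes floxed *Lats2* only where that promoter has been active. LATS1 and LATS2 are the kinases of the Hippo pathway that inhibit YAP and TAZ. There were 3 control libraries, 1 per stage, and 5 L1L2_Alb libraries, 1 of iHBs, 2 of iHPs and 2 of iBECs. Cells were plated from digested livers without a sort. No label tells if 2 libraries of the same condition were grown from separate embryos or cultures, so that their spread may be technical. The p-values rest on that spread, and in the fit across the stages also on how the genotype difference varies between stages. No control has a replicate, so the spread between like controls is not measured.

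HNF4A is the nuclear receptor that keeps most hepatocyte genes active. ONECUT1 (HNF6) and its paralog ONECUT2 are cut-homeodomain factors that act in hepatoblasts, in the choice between hepatocyte and BEC fate and in bile duct formation, and PROX1 is a homeodomain factor needed for hepatoblasts to spread and become hepatocytes. GATA4 and GATA6 are zinc finger factors that open chromatin at liver genes in the foregut endoderm, and they also act in mesenchyme and heart. These factors bind each other's genes and together form the network that holds hepatic identity.

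Levels are in RPKM, in which read numbers are divided by gene length and library size. The libraries held between 18436865 and 33229075 reads, and every member could be turned back to whole reads in all 8 of them, with a minimum of 58 reads for *Onecut1* in L1L2_Alb iHB. *Lats1* was at 5.38 to 11.2 RPKM in the controls and at 7.12 to 22.7 RPKM in the libraries labelled L1L2_Alb, and *Lats2* at 6.90 to 10.1 and 10.9 to 27.6 RPKM, with *Lats2* called higher by limma (0.90, adjusted p = 0.0312 with a range up to 0.148 over the alternatives) and *Lats1* lower than its control in 1 of 5 libraries, L1L2_Alb iHP replicate 2. The genotype is therefore given as labelled. The control iBEC library held less *Krt7* (62.3 RPKM) and *Krt19* (83.7 RPKM), keratins of BECs, than control iHB (399.6 and 273 RPKM), more of the BEC product *Spp1* (23271 against 1706 RPKM) and more *Alb* (6162 against 2485 RPKM), and *Cftr* was at most 0.206 RPKM in every library. Also lower in control iBEC than in control iHB were *Epcam* (2.96 against 55.0 RPKM), *Cldn7* (1.89 against 36.7 RPKM) and *Cldn4* (41.5 against 150 RPKM). The BEC marker *Sox9* was higher (13.3 against 5.53 RPKM). Most of these BEC markers thus go against the iBEC label, which is kept as a name of the culture. In bulk libraries, fewer cells of a type and less RNA per cell cannot be told apart.

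Sequence upstream of the members was looked up in RefSeq on the build GRCm38.p6, as the 250 bases before a start site. Such windows were held for 3 of the 6 members, with 2 windows each for *Hnf4a* and *Prox1* and 1 for *Onecut1*. The files themselves rest on the older build mm8 and carry no coordinates, and 1 value per gene cannot tell the start sites apart. The windows of *Hnf4a* and *Onecut1* are shown because the letters bound by ONECUT and GATA factors, the families of 4 of the 6 members, were searched in them. *Hnf4a* has an upstream start and a downstream start, the downstream one being the main one in adult hepatocytes. Capitals mark 6-letter matches to the ONECUT letters ATCAAT and the GATA letters AGATAA.
Hnf4a upstream start, chr2:163506607-163506856, plus strand: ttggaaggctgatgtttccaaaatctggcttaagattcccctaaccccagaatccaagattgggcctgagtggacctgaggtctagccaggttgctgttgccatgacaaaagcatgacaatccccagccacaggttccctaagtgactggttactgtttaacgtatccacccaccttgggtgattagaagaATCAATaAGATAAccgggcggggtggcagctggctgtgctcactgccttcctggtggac
Hnf4a downstream start, chr2:163546905-163547154, plus strand: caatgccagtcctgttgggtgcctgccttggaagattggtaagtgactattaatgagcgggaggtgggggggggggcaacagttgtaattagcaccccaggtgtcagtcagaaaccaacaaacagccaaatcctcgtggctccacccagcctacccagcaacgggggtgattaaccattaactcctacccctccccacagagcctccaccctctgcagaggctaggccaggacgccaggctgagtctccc
Onecut1, chr9:74861671-74861920, plus strand: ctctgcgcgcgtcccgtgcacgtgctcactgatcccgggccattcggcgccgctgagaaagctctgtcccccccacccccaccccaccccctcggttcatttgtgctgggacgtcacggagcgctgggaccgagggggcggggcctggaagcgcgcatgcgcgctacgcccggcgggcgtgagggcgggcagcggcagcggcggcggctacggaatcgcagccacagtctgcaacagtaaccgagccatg

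In the upstream *Hnf4a* window the ONECUT letters began 59 bases and the GATA letters 52 bases before the start site, 1 base apart and without overlap. Both strands of each window were searched. The ONECUT letters were in 6.72% and the GATA letters in 9.99% of 32851 RefSeq windows of this length, and 1.07% held both. The downstream *Hnf4a* window, the *Onecut1* window and both *Prox1* windows (chr1:190170828-190171077 and chr1:190169516-190169765, minus strand) held neither. The bases just after the start site were found in a GENCODE transcript of the gene for the upstream *Hnf4a* and the *Onecut1* window. They were not found for the downstream *Hnf4a* window or the *Prox1* windows, whose start sites are therefore given by RefSeq alone. The HNF4 letters CAAAGTCCA, found in 0.384% of all windows, and the TEAD letters GGAATG, found in 12.6%, were in none of the 5 windows. The *Onecut1* window was the richest in G and C of the 5 (71.6%, against a median of 52.4% over all windows), and the upstream *Hnf4a* window the poorest (51.2%). A match is a description of the letters and not a binding site. The absence of letters from these windows says nothing of sequence outside them, such as that after the start site.

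In the control cells the members followed different courses from hepatoblasts to the differentiated cultures. *Hnf4a* was at 48.4 RPKM in control iHB, 64.4 RPKM in control iHP and 99.5 RPKM in control iBEC. Its level was therefore not lowest in the cultures driven towards BECs, but 2.06-fold that of iHBs. *Onecut2* went the other way, with 5.28 RPKM in control iHB, 2.56 RPKM in control iHP and 1.66 RPKM in control iBEC, which was 3.19-fold below iHBs. *Onecut1* and *Prox1* were both highest in control iHP. *Onecut1* was at 10.4, 15.9 and 9.72 RPKM in control iHB, iHP and iBEC, and *Prox1* at 9.94, 12.4 and 9.30 RPKM in the same order. *Gata6* was at 17.3, 15.2 and 11.2 RPKM in this order, and *Gata4* lay between 2.94 and 4.44 RPKM. With 1 control library per stage these differences have no replicate check.

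The median of all 13421 genes tested also shifted between the controls, by -0.18 from iHB to iHP and by -0.44 from iHB to iBEC on the log2(RPKM + 1) scale, on which all differences below are given. After upper-quartile scaling, which sets the upper quartile of expressed genes equal, the shifts were -0.0043 and -0.09. The difference of *Hnf4a* from control iHB to control iBEC was 1.03 as deposited and 1.43 with that scaling, and that of *Onecut2* was -1.24 and -0.95. The direction for *Gata6* from iHB to iHP (-0.18 as deposited, 0.0061 scaled) and for *Gata4* from iHB to iBEC (-0.30 and 0.028) depended on the scaling, and so did that of *Onecut1* (-0.08 and 0.29) and *Prox1* (-0.09 and 0.28) from iHB to iBEC.

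**Figure D1:**
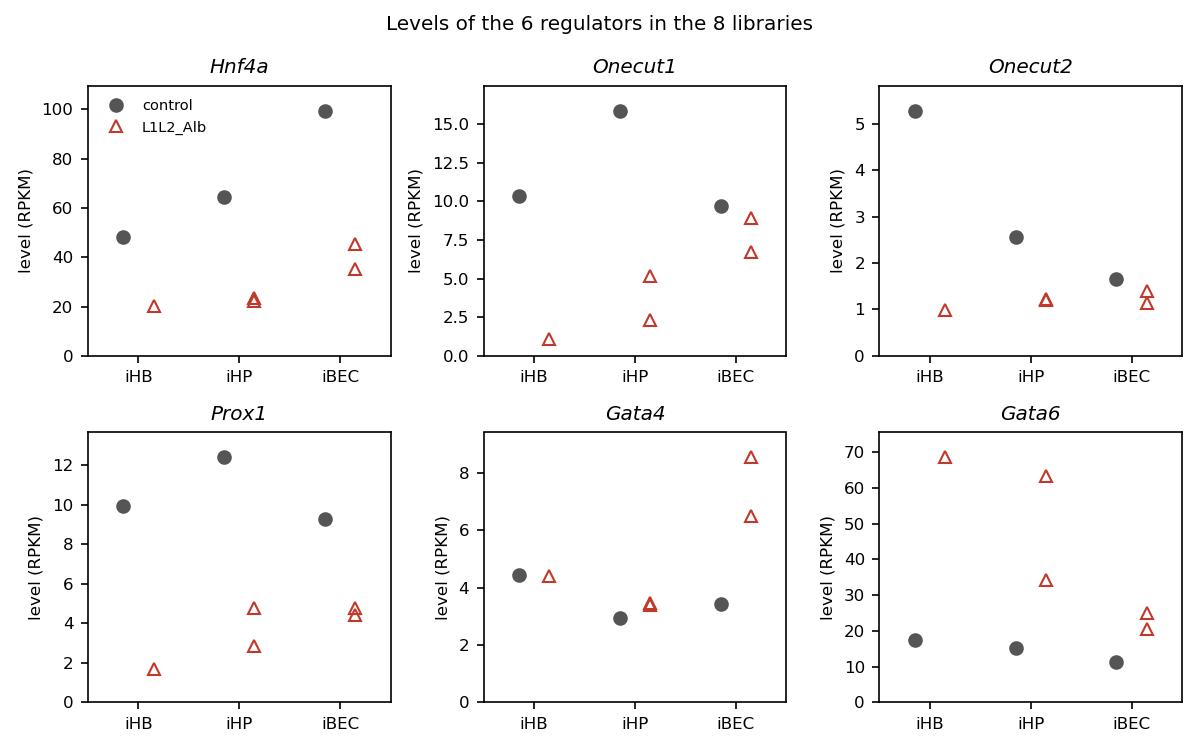
Levels in RPKM (y axis, linear from 0, a scale per gene) of the 6 regulators by culture stage (x axis), with grey circles for control libraries (1 per stage) and open red triangles for L1L2_Alb libraries (1 of iHBs, 2 of iHPs, 2 of iBECs). *Hnf4a*, *Onecut1*, *Onecut2* and *Prox1* are lower than the control in every stage, *Gata6* is higher in every stage, and *Gata4* stands apart from its control in iBECs.

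The effect of genotype was tested as the effect common to the 3 stages, by limma on log2(RPKM + 1) with stage as a block, since that is the comparison with more than 1 library of both genotypes. *Hnf4a* and *Prox1* fell and *Gata6* rose in L1L2_Alb cells, whereas *Onecut1*, *Onecut2* and *Gata4* did not pass the threshold of 0.05 on the adjusted p. Among all genes tested the same fit called 9.57%, of which 6.2% were higher and 3.37% lower, against 3 of the 6 members, 1 higher and 2 lower. At an unadjusted p under 0.05 there were 26.3% of all genes and 5 of the 6 members, all but *Gata4*. The 5 L1L2_Alb libraries were all below the control of their stage for 4 members, as for 10.1% of all genes, and all above it for *Gata6*, as for 22.9%. The median log2 fold change of the members was -1.06, and that of all genes tested 0.058. Each control library served in the comparison with every L1L2_Alb library of its stage.

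*Hnf4a* was at 20.2 RPKM in L1L2_Alb iHB against 48.4 RPKM in the control. In iHPs it was at 23.7 and 22.4 RPKM, 2.72-fold and 2.87-fold below control iHP. In iBECs it was at 35.4 and 45.6 RPKM, 2.81-fold and 2.18-fold below control iBEC. Every L1L2_Alb library lay below every control library, and the highest of them, an iBEC library, lay just under the lowest control, that of iHBs. The deficit was of a like size in the 3 stages, with mean log2 differences of -1.22 in iHBs (n = 1), -1.44 in iHPs (SD 0.0536, n = 2) and -1.29 in iBECs (SD 0.251, n = 2). The fit gave -1.33 (SE 0.161, 95% interval -1.70 to -0.96, adjusted p = 0.00373 by limma, lower in 5 of 5). The levels in L1L2_Alb cells kept the order of the control stages, with the iHB and iHP libraries close together.

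*Prox1* was at 1.69 RPKM, or 201 reads, in L1L2_Alb iHB against 9.94 RPKM, or 1170 reads, in control iHB. In iHPs it was at 2.86 and 4.76 RPKM against 12.4 RPKM. In iBECs it was at 4.78 and 4.41 RPKM against 9.30 RPKM. The groups did not overlap, and all 5 L1L2_Alb libraries were below the lowest control. The ratio narrowed from 5.87-fold in iHBs to 4.35-fold and 2.61-fold in iHPs and 1.94-fold and 2.11-fold in iBECs. The log2 fold change over the stages was -1.42 (SE 0.257, adjusted p = 0.0147 from limma, lower in 5 of 5).

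*Onecut1* showed the widest change of size with stage. L1L2_Alb iHB held 1.11 RPKM, or 58 reads, against 10.4 RPKM, or 537 reads, in the control, 9.33-fold less. In iHPs the 2 libraries held 2.32 and 5.20 RPKM against 15.9 RPKM, 6.84-fold and 3.05-fold less. In iBECs they held 8.90 and 6.74 RPKM against 9.72 RPKM, 1.09-fold and 1.44-fold less. The 5 L1L2_Alb libraries were all below the lowest control, but in iBECs the gap was small. The fit gave -1.46 with a wide error (SE 0.399, 95% interval -2.37 to -0.54, adjusted p = 0.0569 from limma, lower in 5 of 5), so that *Onecut1* was not called although its estimate was larger in size than that of *Hnf4a*. Without the iBEC stage the log2 fold change was -2.12 and passed (adjusted p = 0.017). With upper-quartile scaling (-1.55, adjusted p = 0.0474) or without L1L2_Alb iBEC replicate 1 (-1.63, adjusted p = 0.0443) it passed as well.

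*Onecut2* was at 0.986 RPKM in L1L2_Alb iHB against 5.28 RPKM in control iHB. It was at 1.19 and 1.23 RPKM in L1L2_Alb iHPs against 2.56 RPKM, and at 1.39 and 1.15 RPKM in L1L2_Alb iBECs against 1.66 RPKM. The groups did not overlap, and L1L2_Alb cells stayed between 0.986 and 1.39 RPKM in all stages while the control level ran down from 5.28 to 1.66 RPKM. The log2 fold change was -0.79 (SE 0.275, 95% interval -1.42 to -0.16, adjusted p = 0.113 from limma, lower in 5 of 5). The pseudocount of 1 RPKM is close to these levels and makes log2 differences smaller than the ratios of RPKM, which were 5.36-fold in iHBs, 2.15-fold and 2.09-fold in iHPs, and 1.19-fold and 1.44-fold in iBECs.

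*Gata6* moved opposite to these 4 genes. It was at 68.6 RPKM in L1L2_Alb iHB against 17.3 RPKM in control iHB, 3.96-fold higher. In iHPs the 2 libraries were at 63.4 and 34.1 RPKM against 15.2 RPKM, 4.17-fold and 2.24-fold higher. In iBECs they were at 20.6 and 24.9 RPKM against 11.2 RPKM, 1.83-fold and 2.22-fold higher. Every L1L2_Alb library was above every control, and the 2 iHP libraries differed from each other by more than the 2 iBEC libraries did. The log2 fold change was 1.44 (SE 0.26, 95% interval 0.84 to 2.03, adjusted p = 0.0148 from limma, higher in 5 of 5).

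*Gata4*, the paralog of *Gata6*, did not show that pattern. It was at 4.43 RPKM in L1L2_Alb iHB against 4.44 RPKM in control iHB, and at 3.48 and 3.42 RPKM in L1L2_Alb iHPs against 2.94 RPKM. In iBECs it was at 8.56 and 6.51 RPKM against 3.43 RPKM, 2.49-fold and 1.90-fold higher. The 3 L1L2_Alb libraries of iHBs and iHPs lay within the range of the controls, and the 2 of iBECs were above all 6 others. The fit across the stages gave 0.40 (SE 0.234, 95% interval -0.13 to 0.94, adjusted p = 0.325 from limma, higher in 4 of 5). The median over all genes tested was also above the control in these 2 libraries, by 0.22 and 0.26. With upper-quartile scaling the mean difference of *Gata4* in iBECs went from 0.94 to 0.78 and that of *Gata6* from 0.95 to 0.76.

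**Figure D2:**
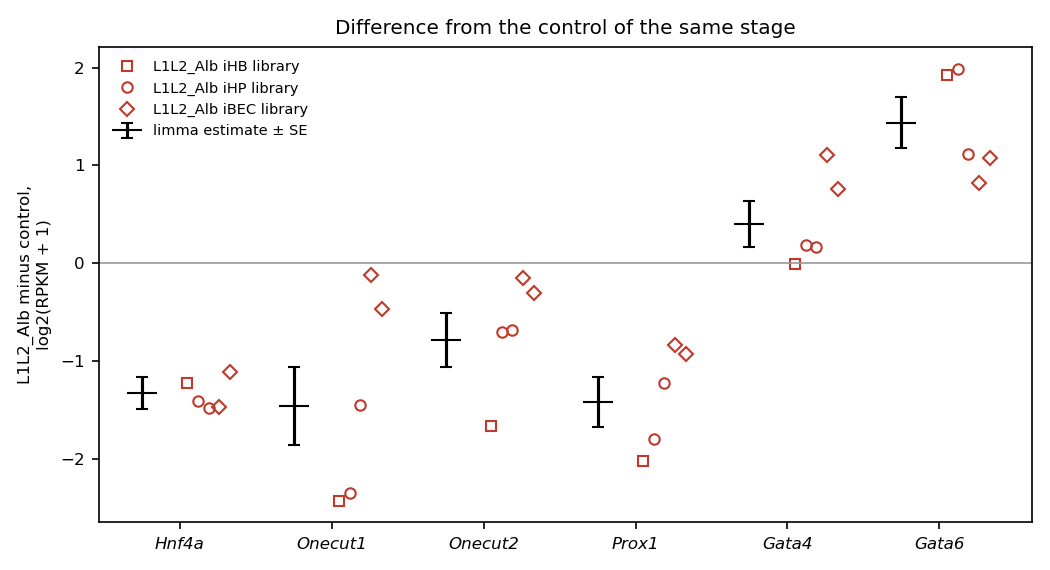
Difference in log2(RPKM + 1) between each L1L2_Alb library and the control library of its stage (y axis) for the 6 regulators (x axis), with squares for iHBs, circles for iHPs and diamonds for iBECs, and in black the limma estimate across the stages ± SE. The *Hnf4a* libraries lie close together around -1.33, while those of *Onecut1* spread from -2.43 in iHBs to -0.11 in an iBEC library.

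Without overlap, every L1L2_Alb library was below every control library for 4 of the 6 members, a pattern that 3.7% of all genes tested showed, and above every control for *Gata6*, as in 9.18% of all genes. The number of members that passed changed when a stage was left out. Without iHBs the fit called *Hnf4a* alone, and without iHPs it called 0 of the 6, with adjusted p from limma of 0.0562 for *Hnf4a*, 0.11 for *Prox1* and 0.0875 for *Gata6*. All 3 log2 fold changes kept their direction there, at -1.26, -1.37 and 1.37. Without iBECs 4 of the 6 were called.

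Whether the effect of genotype differed between the stages was asked with the interaction terms of the 6 conditions, by a moderated F test. For *Onecut1* the unadjusted p was 0.0417 and the adjusted p 0.867, and for *Onecut2* they were 0.0878 and 1.00. The other members had unadjusted p between 0.236 (*Prox1*) and 0.911 (*Hnf4a*). Across all genes limma called 0 of 13421 in this test, and 5.46% had an unadjusted p under 0.05. The narrowing of the difference from iHBs to iBECs, given above for *Onecut1*, *Onecut2*, *Prox1* and *Gata6*, is therefore a description of single libraries against single controls. With 2 residual degrees of freedom a difference between stages had to be large to pass.

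Between stages, the fit gave the change from iHBs common to both genotypes. *Hnf4a* was higher in iBECs than in iHBs by 1.00 (SE 0.201, adjusted p = 0.0273 from limma), the 1 member called, against 5.72% of all genes, 2.94% higher and 2.78% lower, and the call was lost without L1L2_Alb iBEC replicate 2 (0.90, adjusted p = 0.0724). *Gata6* had a log2 difference of -1.15 (SE 0.325, adjusted p = 0.0843) and passed only when L1L2_Alb iHP replicate 2 was left out (-1.17, adjusted p = 0.045), among the alternatives run. *Onecut1* had 1.18 (SE 0.497, adjusted p = 0.19), while *Prox1* (0.57), *Onecut2* (-0.43) and *Gata4* (0.26) had adjusted p between 0.294 and 0.594. From iHBs to iHPs no member was called, with differences between -0.41 for *Gata4* and 0.77 for *Onecut1* and adjusted p from 0.712 to 0.852. Over all genes limma called 0 there, and 8.63% had an unadjusted p under 0.05.

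Within L1L2_Alb cells, iBECs could be set against iHPs with 2 libraries on both sides. *Hnf4a* was higher in iBECs by 0.78 (SE 0.282), *Onecut1* by 0.95 (SE 0.387) and *Gata4* by 0.93 (SE 0.306), whereas *Gata6* had a difference of -1.01 (SE 0.357). None of the members passed, with adjusted p from limma of 0.197, 0.245, 0.158 and 0.186 for these 4 genes, while 3.41% of all genes did, 2.96% higher and 0.447% lower. *Prox1* (0.25) and *Onecut2* (0.04) had differences under their SEs of 0.332 and 0.296.

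The order of the levels changed with genotype. *Hnf4a* was the highest of the 6 members in the 3 control libraries and the 2 L1L2_Alb iBEC libraries, and *Gata6* was the highest in L1L2_Alb iHB and both L1L2_Alb iHP libraries. The ratio of *Hnf4a* to *Gata6* in RPKM was 2.79, 4.23 and 8.86 in control iHB, iHP and iBEC, and 0.294 in L1L2_Alb iHB, 0.374 and 0.657 in L1L2_Alb iHPs, and 1.72 and 1.83 in L1L2_Alb iBECs. All 5 ratios in L1L2_Alb cells were below the lowest control ratio. This follows from the lack of overlap given above for *Hnf4a* and for *Gata6*, and is not a separate result. The ratio within a library does not depend on scaling between libraries. It was highest in iBECs in both genotypes, without a test of that order.

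The 2 paralog pairs also changed in their ratios. *Gata6* to *Gata4* was 3.90, 5.18 and 3.27 in control iHB, iHP and iBEC. In L1L2_Alb cells it was 15.5 in iHB and 18.2 and 9.99 in iHPs, but 2.41 and 3.82 in iBECs, which straddled the control. *Onecut1* to *Onecut2* was 1.96, 6.19 and 5.87 in the controls, 1.12 in L1L2_Alb iHB, 1.94 and 4.24 in L1L2_Alb iHPs and 6.39 and 5.86 in L1L2_Alb iBECs. In iHBs and iHPs *Onecut1* was thus lower by a larger factor than *Onecut2*, and in iBECs the ratio was close to the control in both libraries. These ratios were not tested. Levels of different genes are comparable only as far as the gene lengths used are right. The length that the whole reads implied for *Onecut1*, 1823 bases, was under the 3957 bases of its longest GENCODE transcript. The same held for *Onecut2* (13391 against 16234 bases) and *Prox1* (4137 against 7913 bases), among others.

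**Figure D3:**
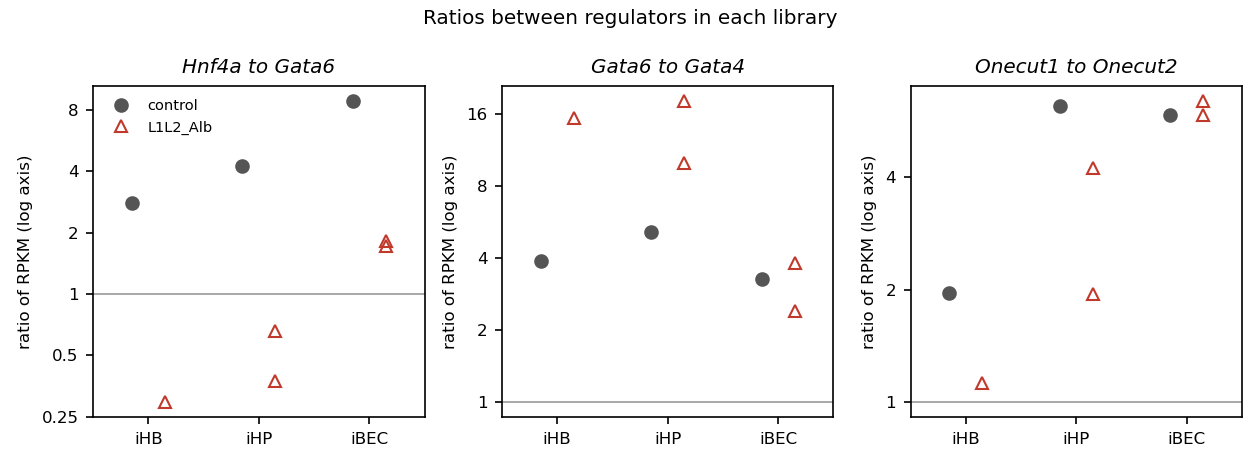
Ratio of RPKM between 2 regulators within each library (y axis, logarithmic to base 2) by culture stage (x axis), with grey circles for control and open red triangles for L1L2_Alb libraries and a grey line at equal levels. *Hnf4a* to *Gata6* is under 1 in L1L2_Alb iHB and iHPs and over 1 elsewhere, and *Gata6* to *Gata4* stands above the control in iHB and iHPs but not in iBECs.

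Other members of these families were mostly low. Of 9 paralogs and cofactors, 7 had a mean under 1 RPKM and were not tested, among them *Onecut3*, *Hnf4g* and *Gata5*, which were each at most 0.292 RPKM in every library. *Zfpm1*, which encodes the GATA cofactor FOG1, was at 43.9 RPKM in L1L2_Alb iHB against 11.6 RPKM in control iHB, at 30.9 and 35.1 RPKM in L1L2_Alb iHPs against 10.4 RPKM, but at 11.8 and 19.1 RPKM in L1L2_Alb iBECs against 13.3 RPKM. Its log2 fold change was 1.13 (SE 0.323, adjusted p = 0.0649 from limma, higher in 4 of 5). *Gata2*, a factor of blood and endothelial cells, was at 4.17 and 3.19 RPKM in control iHB and iHP and at most 1.22 RPKM in the other 6 libraries (log2 fold change -0.91, adjusted p = 0.154). *Gata1*, the erythroid factor, was at 3.40 and 2.27 RPKM in the same 2 control libraries and at most 0.345 RPKM elsewhere.

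Of 17 other transcription factors of the hepatic network, 15 were tested. Of these, 1 was called higher and 6 lower, against 6.2% and 3.37% of all genes. Their median log2 fold change was -0.72, against 0.058 for all genes. The largest falls were in *Nr5a2* (-1.51, SE 0.239, adjusted p = 0.00904), which encodes the nuclear receptor LRH-1 of bile acid synthesis, and in *Foxa3* (-1.30, SE 0.225, adjusted p = 0.0122). *Nr5a2* was at 0.55 RPKM in L1L2_Alb iHB against 5.11 RPKM in the control, at 1.40 and 1.85 against 7.54 RPKM in iHPs, and at 4.08 and 3.59 against 8.41 RPKM in iBECs, so that, as for *Prox1*, every L1L2_Alb library was below every control. The other 4 called lower were *Nr1i2*, *Creb3l3*, *Rxra* and *Hhex*. *Foxa2*, a forkhead factor that opens liver chromatin together with the GATA factors, rose (1.18, SE 0.276, adjusted p = 0.0351 from limma, higher in 5 of 5), with 35.6 RPKM in L1L2_Alb iHB against 9.96 RPKM, 26.8 and 36.0 RPKM in iHPs against 10.4 RPKM, and 13.1 and 19.4 RPKM in iBECs against 11.5 RPKM. Its paralog *Foxa3* was at 1.76 RPKM in L1L2_Alb iHB against 6.82 RPKM and at 2.31 and 3.02 RPKM in iHPs against 10.4 RPKM. *Cebpa*, a regulator of hepatocyte metabolism, had -0.54 (adjusted p = 0.166), lower in 4 of 5. Of the 15, 4 passed with no filter on low values and 0 without iHBs or without iHPs, and *Foxa2* passed in 4 of 12 alternatives, missing the threshold with upper-quartile scaling among others.

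**Figure D4:**
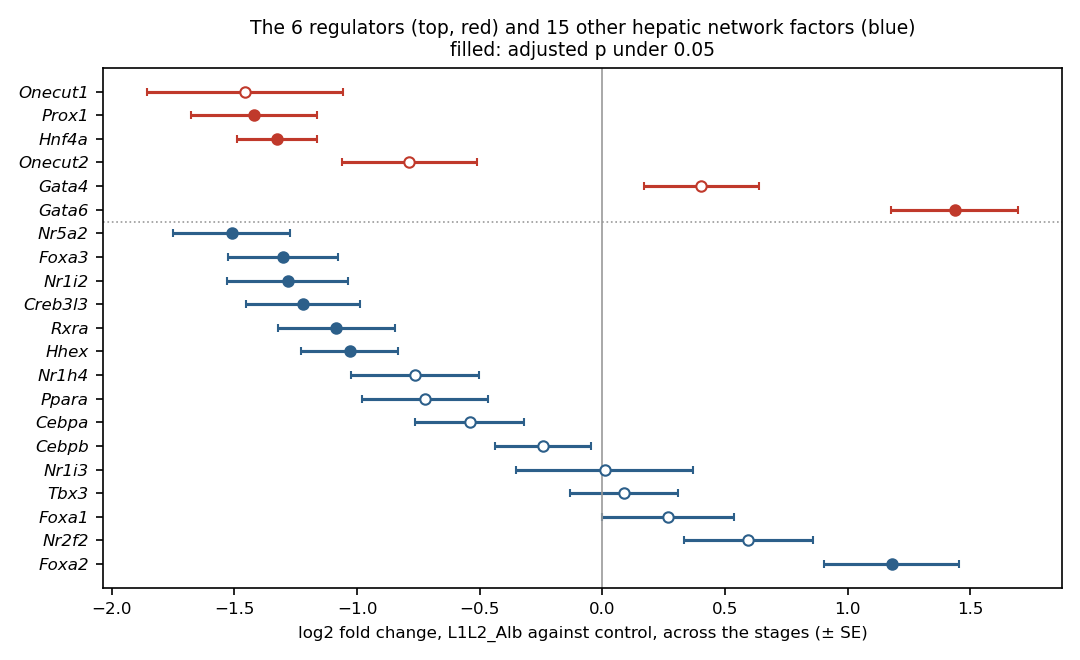
Log2 fold change in log2(RPKM + 1) between L1L2_Alb and control across the stages (x axis, ± SE, limma on 8 libraries) for the 6 regulators in red and 15 other factors of the hepatic network in blue (y axis), with filled points for an adjusted p under 0.05. Of the 21 genes, *Gata6* and *Foxa2* are the 2 called higher and 8 are called lower.

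Known target genes of HNF4A, such as apolipoprotein, clotting factor and gluconeogenesis genes, were taken as a list of 25, of which 24 were in the table under the symbol listed and 20 were tested. Of these, 10 were called lower, against 3.37% of all genes, and 0 higher, 19 of the 20 had a negative log2 fold change, and the median was -1.64. *Agt*, angiotensinogen, was at 2.27 RPKM in L1L2_Alb iHB against 45.6 RPKM, at 4.57 and 7.99 RPKM against 51.1 RPKM in iHPs, and at 11.3 and 20.1 RPKM against 51.1 RPKM in iBECs (log2 fold change -2.71, SE 0.384, adjusted p = 0.0063 from limma). The median log2 difference of the 20 genes was -1.58 in L1L2_Alb iHB, -2.42 and -2.54 in the iHP libraries, and -0.41 and -0.76 in the iBEC libraries, where *Hnf4a* itself had differences of -1.47 and -1.11. The difference of *Hnf4a* from its control was thus of a like size in the 3 stages while that of the list was smaller in iBECs, and this was not tested. *Apoa1* was the 1 gene of the list with a positive value (0.65, adjusted p = 0.35). The count of 10 was 6 without L1L2_Alb iHP replicate 1, 6 without L1L2_Alb iHP replicate 2, 5 with no filter on low values, 5 without iHBs, 1 without iHPs and 14 without iBECs.

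Unsorted cultures can hold other cell types, whose markers were read in the same fit. Of 11 markers of stellate and other mesenchymal cells, 8 were tested and 0 called by limma, against 9.57% of all genes. All 8 had negative estimates, with a median of -1.08. An unadjusted p under 0.05 from limma was found for 5 of the 8, against 26.3% of all genes. Without L1L2_Alb iBEC replicate 1 alone 4 of the 8 were called lower, and without the iBEC stage 5 were. All 8 were lower than the control in L1L2_Alb iHB, and all 8 were higher in L1L2_Alb iBEC replicate 1, whereas 6 were lower in replicate 2. Their summed level was 2442 to 3942 RPKM in the controls, 1247 RPKM in L1L2_Alb iHB, 664 and 1042 RPKM in L1L2_Alb iHPs, and 3592 and 1608 RPKM in L1L2_Alb iBECs, with *Reln* at 0 in 2 L1L2_Alb libraries and *Rgs5* in 1. L1L2_Alb iBEC replicate 1, with the highest *Gata4* (8.56 RPKM), had the highest *Dcn* (309 RPKM), *Lum* (259 RPKM), *Col3a1* and *Pdgfra* of the 8 libraries. *Col1a1*, *Col1a2*, *Des* and *Pdgfrb* were instead highest in control iHB. That library also had the highest summed level (3942 RPKM), with *Gata4* at 4.44 RPKM. The 3 L1L2_Alb libraries with the highest *Gata6* had the lowest summed level. The part of mesenchymal cells in the *Gata4* and *Gata6* values was not tested.

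Of 9 haematopoietic markers, 6 were tested and 1 was called, lower as were 3.37% of all genes. This was *Hbb-b1* (-2.09, adjusted p = 0.0335 from limma), whose reads may be shared with a near-identical globin copy. It was called in 6 of 12 alternatives and not without L1L2_Alb iHP replicate 1 (adjusted p = 0.0593) or replicate 2 (0.0615), and without iBECs 3 of the 6 were called lower. Of the 6, 4 had negative estimates and 2 positive ones, *Cd68* (0.36, higher in 4 of 5) and *Csf1r* (0.15, higher in 3 of 5), neither called. The summed level of the 9 was 453 RPKM in control iHB against 410 RPKM in L1L2_Alb iHB. In iHPs it was 286 RPKM in the control against 152 and 207 RPKM, and in iBECs 248 RPKM against 420 and 420 RPKM. Of 9 endothelial markers, 4 were tested and *Flt4* was called higher (1.60, adjusted p = 0.00904 from limma), as were 6.2% of all genes. Of the 4 endothelial markers tested, 2 had positive and 2 negative estimates. The summed endothelial level was 14.4 to 33.5 RPKM in the controls and 23.4 to 54.3 RPKM in L1L2_Alb libraries. Within that sum *Flt4* alone was at 5.18 to 9.23 RPKM in the controls and 16.5 to 44.8 RPKM in L1L2_Alb libraries. The sum is therefore not a measure of endothelial cells at large. *Emcn* and *Stab2* were at 0 in 1 library. *Tek*, *Cdh5*, *Tie1*, *Emcn* and *Stab2* were under 1 RPKM in all 8. *Pecam1* was at 4.01 and 4.18 RPKM in control iHB and iHP and at most 0.867 RPKM elsewhere (-1.17, adjusted p = 0.0757), *Kdr* was higher in 5 of 5 (0.97, adjusted p = 0.0542), and *Lyve1* reached 17.2 to 22.1 RPKM in the 3 iBEC libraries (-0.26, adjusted p = 0.763). PROX1 also marks lymphatic endothelium, as *Lyve1* and *Flt4* do, and the part of such cells in the *Prox1* values was not tested.

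Markers of the 2 epithelial fates went in both directions within each fate. Of the BEC markers tested, 4 had positive and 3 negative estimates. Of the hepatoblast and hepatocyte markers tested, 2 had positive and 4 negative estimates. Of 8 BEC markers 7 were tested. Called higher by limma were *Krt7* (2.17, adjusted p = 0.00422) and *Krt19* (1.31, adjusted p = 0.0205), against 6.2% of all genes. *Spp1* (-1.50, adjusted p = 0.0306 from limma) was called lower, against 3.37% of all genes. The call of *Spp1* held in 6 of 12 alternatives and was lost without L1L2_Alb iHP replicate 1 (adjusted p = 0.0534 from limma) and without L1L2_Alb iBEC replicate 1 (0.0532), and that of *Krt19* held in 9 of 12. Without iHPs 0 of the 7 passed. Not called by limma were *Sox9* (-0.36, adjusted p = 0.616), *Cldn7* (-0.18, 0.913), *Epcam* (0.82, 0.417) and *Cldn4* (0.61, 0.141). Of 8 markers of hepatoblasts and hepatocytes, 7 were in the table under the symbol listed and 6 were tested. By limma 3 were called lower, against 3.37% of all genes. They were led by *Ahsg* (-2.59, adjusted p = 0.00415 from limma) and *Ttr* (-1.95, adjusted p = 0.00445), with *Alb* as the third. *Afp*, the fetal marker, had 0.07 (adjusted p = 0.914 from limma), *Apoa1* 0.65 (0.35) and *Dlk1* -0.70 (0.256). Some of these markers are themselves on the HNF4A target list, namely *Alb*, *Ttr* and *Apoa1*.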

How the data were processed

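RNA of 8 mouse liver cell cultures was sequenced by the authors (TruSeq RNA kit, Illumina HiSeq). The submitters' processing notes name Bowtie 0.12.2 and the mouse build mm8, without their role. The deposited values are RPKM per gene and library, a unit inferred from whole-read steps, with no scaling between libraries. A total of 23471 entries held 4 of 2 repeated symbols, which were left out. Reads per library were recovered from short RefSeq genes, and used for depth only, since RPKM is not suited to a count model. Genes averaging 1 RPKM or more (13421) entered the fit as log2(RPKM + 1) in limma 3.58.1 in R 4.3.3 (eBayes with trend), with p adjusted by Benjamini-Hochberg over all of them, two-sided. The fit with stage and genotype had 4 residual degrees of freedom, the interaction fit 2 and the fit of L1L2_Alb iBECs against iHPs 2. The code was tested on simulated data. Differences within single stages have 1 control and no test.

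Named genes are the members, the 3 genes most correlated with each, up to 2 largest rises and falls called in each list, and expressed paralogs and cofactors. Other listed genes were named after their values were seen. The members and all lists were chosen with earlier results of these data known. Alternatives were a pseudocount of 0.1, upper-quartile scaling (percentile 75), no filter, a mean of at least 5 RPKM, leaving out a library or a stage, averaging the libraries of a pair, and a replicate block. Promoter windows and their build are from RefSeq (GRCm38.p6), and transcript lengths from GENCODE. Values of some listed genes are not reported here. Sequences of *Onecut2*, *Gata4* and *Gata6* were not used here. Python 3.11.15, pandas 2.3.3 and matplotlib 3.10.9 were used.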

Additional observations from a re-analysis of the deposited data

Results flagged for a closer look

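The difference of *Gata4* between L1L2_Alb and control cells went in opposite directions in different stages, with every L1L2_Alb library of a stage on the same side of its control. On the log2(RPKM + 1) scale it was -0.0042 in the single L1L2_Alb iHB library, 0.18 in iHPs (SD 0.0157, n = 2) and 0.94 in iBECs (SD 0.246, n = 2). The value in iHBs is 431 reads against 429 reads in the control and is 0.0018 after upper-quartile scaling, so its sign depends on the scaling. The interaction test of *Gata4* gave an unadjusted p of 0.257 and an adjusted p of 1.00 from limma, and the opposite directions themselves were not tested.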

How the results depend on the processing

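Of 607 values recomputed under an alternative, the genotype effect of *Hnf4a* kept its call in 11 of 12 settings and those of *Prox1* and *Gata6* in 10 of 12, *Onecut1* was called in 3 of 12, and *Onecut2* and *Gata4* were called in 0 of 11. Without iHPs the adjusted p was 0.0562 for *Hnf4a* (-1.26), 0.11 for *Prox1* (-1.37) and 0.0875 for *Gata6* (1.37), and without iHBs 0.0857 for *Prox1* (-1.19) and 0.0914 for *Gata6* (1.25). *Onecut1* passed with upper-quartile scaling (-1.55), without L1L2_Alb iBEC replicate 1 and without iBECs (-2.12), and ranged from -1.63 to -1.28 when a library was left out. From iHBs to iBECs, leaving out a library moved *Hnf4a* between 0.90 and 1.08 and *Gata6* between -1.17 and -1.004. In L1L2_Alb iBECs against iHPs, it moved *Onecut1* between 0.50 and 1.40, *Gata6* between -1.44 and -0.57, *Onecut2* from -0.040 to 0.11 and *Prox1* from -0.044 to 0.54. Genes called in the genotype fit were 686 with no filter, 326 without iHBs, 132 without iHPs and 793 to 1227 without a library, against 1284. For iHPs against iHBs they were 2 with upper-quartile scaling, 4 with a mean of at least 5 RPKM and 0 to 1 without a library, against 0. For iBECs against iHBs they were 492 with no filter and 488 to 1739 without a library, against 768. For L1L2_Alb iBECs against iHPs they were 0 with no filter and 0 to 126 without a library, against 457. With the replicate number as a block they were 911, without a changed call for any member, and same-numbered libraries did not deviate together (r = -0.02), so the numbers were not taken as a pairing. Between the controls, 4 members were higher in iBEC than in iHB with upper-quartile scaling against 1 as deposited, and *Gata6* from iHB to iHP (0.0061) and *Gata4* from iHB to iBEC (0.028) changed sign. The cause was not tested. Fits with fewer libraries or stages have fewer degrees of freedom. The part of depth in the members' values was not tested beyond their read numbers, the lowest being 58.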

Other observations

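Genes whose pattern over the 8 libraries was most like that of a member were listed by Pearson's r of log2(RPKM + 1), as a description. The 8 libraries include 2 pairs of a condition and share genotype and stage, and the 3 highest of 13421 genes are high by selection. Next to *Hnf4a* came *1300017J02Rik* (r = 0.989), *Trf*, which encodes transferrin (0.988), and *Itih1* (0.985), of which *Trf* ran from 2006 to 18663 RPKM. Next to *Onecut1* came *Erbb3*, a receptor of the EGF receptor family (0.997), *Col18a1* (0.983) and *Sntb1* (0.978). *Prox1* was nearest to *Grb7* (0.990), an adaptor of ERBB receptors, *Elovl2* (0.975), a fatty acid elongase, and *Cyp39a1* (0.973), an oxysterol hydroxylase. *Onecut2* was nearest to *Kansl1l* (0.991), *Adamtsl2* (0.983) and *2610035D17Rik* (0.976).

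*Gata6* was nearest to *Aif1l* (0.990), *Ttll7* (0.988) and *Golim4* (0.986), and *Aif1l* ran from 12.8 to 127 RPKM. *Gata4* was nearest to *Grasp* (0.981), *Srd5a1* (0.977) and *Ptprm* (0.942). Among the members themselves *Onecut1* and *Prox1* were most alike (r = 0.938), and *Gata6* was opposed to *Onecut1* (-0.940), *Hnf4a* (-0.912) and *Prox1* (-0.910), whereas *Gata4* and *Gata6* had r = -0.03 over the 8 libraries.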
